A study of Mus musculus with 19 samples.

Results

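The TSC22 domain family of leucine zipper proteins is encoded in the mouse by Tsc22d1, Tsc22d2, Tsc22d3 and Tsc22d4, which were taken by name from the deposited tables: 4 of 16233 genes in the table of all medial amygdala cells and 4 of 15299 in the table that compares dissociation methods. The proteins dimerize through a shared TSC box and leucine zipper, and several genes of the family make short and long forms from separate start sites. Tsc22d3 encodes GILZ, the glucocorticoid-induced leucine zipper, a classical target gene of the glucocorticoid receptor that binds NF-kappaB and AP-1 and is known as a mediator of the anti-inflammatory action of glucocorticoids. Tsc22d1 was first described as a gene induced by TGF-beta, and long forms of the family are known to bind the pseudokinase NRBP1 and to act in WNK kinase signalling in the response to osmotic stress.

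Drop-seq, which counts transcripts of single cells in droplets by unique molecular identifiers (UMIs), was run on dissociated medial amygdala of male C57BL/6J mice. Of 19 libraries, 17 were made by Act-Seq, a dissociation built to limit transcription while the tissue is taken apart, and 2 conventionally. Act-Seq was used for mice left naive (6 libraries), injected with saline (1), after seizure (2), after immobilization, a restraint stress (4), and exposed to odor (4). The conventional method was used for saline-injected mice (1) and mice after seizure (1). Seizure 1, immobilization 2 and 3 and odor 1 and 2 were from mice of 9 weeks, and the other libraries, all naive ones included, from mice of 8 weeks. The labels keep the odor libraries out of the authors' own comparison of immediate early genes. Whether the libraries of 1 group are from different animals is not in the labels, so the p-values reflect the spread of the libraries only, and that spread may be technical.

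The table of all cells held 20679 cells with 43 to 2189 cells and 116492 to 3723521 UMIs per library, and that of the dissociation methods 8071 cells with 2102364 to 4309887 UMIs per library. UMIs were summed per library and cell class over at least 10 cells, and levels are given in CPM. CPM are the UMIs of a gene scaled to a total of 1000000 UMIs of that library and class. They are shares of the class total, so very abundant genes of a class lower the values of its other genes. In naive oligodendrocytes the 8 oligodendrocyte markers summed to 138859 CPM. Levels were compared between classes and libraries with this limit, and not between genes. Naive 6, with 43 cells, entered no class sum, and 20 of 20659 barcodes occurred in more than 1 library. The classes were those of the authors, with the cells of their separate neuron table (2444 cells) taken as 1 class and the rest of their neuron class as another. Their own markers were highest in astrocytes, endothelial cells, microglia, mural cells, oligodendrocytes and oligodendrocyte precursors. The 2 neuron groupings carried markers of both kinds. In naive libraries 10 neuron markers summed to 9443 CPM in the neuron table and 5432 CPM in the other neuron-class cells, above the 1429 CPM of precursors, the next class. Of single neuron genes, Meg3 was at 4431 and 3981 CPM there, Snap25 at 573 and 453 CPM and Syt1 at 372 and 303 CPM. The 8 astrocyte markers summed to 13095 and 17175 CPM there, against 31185 CPM in astrocytes, and the astrocyte gene Aldoc was at 4515 and 5385 CPM against 5022 CPM. These cells are therefore called here the neuron table and the other neuron-class cells. Other classes carried foreign markers too. Endothelial cells held 5100 CPM of mural markers in naive libraries and 6580 CPM after immobilization. Their red blood cell markers were at 2983 to 23815 CPM and 2275 to 69715 CPM. Naive mural cells held 251 to 6350 CPM of fibroblast markers. Perivascular macrophage markers in microglia reached 607 CPM in naive libraries and 1319 CPM after immobilization. The part of these markers was not tested.

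On the mouse genome GRCm38, Tsc22d3 lies on the minus strand of chromosome X (140539528 to 140600659), Tsc22d1 on the plus strand of chromosome 14 (76414961 to 76507765), Tsc22d2 on the plus strand of chromosome 3 (58414715 to 58466783) and Tsc22d4 on the plus strand of chromosome 5 (137745730 to 137768450). RefSeq promoter windows of GRCm38.p6, 250 bases before to 50 after a start site, matched 2 members, with 3 windows for Tsc22d3 and 5 for Tsc22d1. Because Tsc22d3 is a glucocorticoid receptor target, the windows were searched on both strands for the receptor's half-site AGAACA, which reads TGTTCT on the other strand, and for the palindrome made of AGAACA, any 3 letters and TGTTCT, which contains the half-site. A half-site occurred in 1 of 3 Tsc22d3 windows and in 1 of 5 Tsc22d1 windows, and the palindrome in 0 of both. Of all 32851 windows, 19.0% held a half-site and 3 windows held the palindrome. Bases upstream of 2 Tsc22d3 start sites, the distal one and one inside the gene, and of the Tsc22d1 start site inside the gene whose window holds the half-site, each ending before the nearest annotated transcript start, are shown because Tsc22d3 and Tsc22d1 are the members that changed between groups. Capitals mark the half-site, and a match describes letters only.
Tsc22d3, chrX:140600660-140600772, minus strand, distal start site: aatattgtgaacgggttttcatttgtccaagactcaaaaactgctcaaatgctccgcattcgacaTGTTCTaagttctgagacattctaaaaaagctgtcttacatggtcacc
Tsc22d3, chrX:140548572-140548821, minus strand, internal start site: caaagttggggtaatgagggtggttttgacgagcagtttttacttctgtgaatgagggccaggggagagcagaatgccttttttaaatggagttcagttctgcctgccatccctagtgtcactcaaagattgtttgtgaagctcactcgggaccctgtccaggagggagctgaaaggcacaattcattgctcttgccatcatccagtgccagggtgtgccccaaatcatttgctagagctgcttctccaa
Tsc22d1, chr14:76503976-76504213, plus strand, internal start site: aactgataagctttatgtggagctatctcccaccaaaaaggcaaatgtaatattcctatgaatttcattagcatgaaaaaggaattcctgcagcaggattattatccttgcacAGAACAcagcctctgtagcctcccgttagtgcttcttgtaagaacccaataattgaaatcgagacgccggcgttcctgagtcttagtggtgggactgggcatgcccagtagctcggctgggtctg

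In naive libraries the members differed in where they were expressed. The authors built the classes from these cells, so the order of the classes is a description with no test. Tsc22d3 was highest in endothelial cells, at 494 ± 251 CPM (SD, n = 5 libraries), followed by astrocytes at 320.0 ± 148 CPM (n = 5), mural cells at 251 ± 149 CPM (n = 4) and oligodendrocytes at 173 ± 79.0 CPM (n = 5). The other neuron-class cells (136 ± 88.7 CPM), the neuron table (123 ± 61.0 CPM) and microglia (113 ± 52.4 CPM) came next, and precursors were lowest at 50.8 ± 34.0 CPM (n = 5 each). Neighbours in this order lay within the larger SD of the pair except microglia and precursors. The endothelial level was nevertheless above the astrocyte level within each of the 5 libraries.

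Tsc22d1 had a steeper order. Endothelial cells held 2079 ± 330 CPM (n = 5), precursors 1007 ± 112 CPM (n = 5) and mural cells 668 ± 148 CPM (n = 4), each step being larger than the larger SD. The neuron table (242 ± 95.8 CPM), the other neuron-class cells (208 ± 38.1 CPM) and astrocytes (206 ± 37.4 CPM) did not differ beyond their spread (n = 5 each). Oligodendrocytes (69.2 ± 19.3 CPM) and microglia (63.7 ± 37.9 CPM) were lowest and also lay within their spread of each other (n = 5 each).

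Tsc22d4, known for roles in metabolic control, had another order. Oligodendrocytes held 1550.4 ± 190.0 CPM, astrocytes 1308 ± 79.3 CPM and the other neuron-class cells 1156 ± 109 CPM (n = 5 each). Precursors (869 ± 211 CPM) and the neuron table (809 ± 200.4 CPM) lay within their spread of each other and above microglia (408 ± 135 CPM, n = 5 each). Mural cells (144 ± 59.6 CPM, n = 4) and endothelial cells (86.4 ± 30.01 CPM, n = 5) were lowest and did not differ beyond the larger SD, so endothelial cells were the highest class for Tsc22d1 and the lowest for Tsc22d4. Tsc22d2, with few UMIs in most sums, ran only from 13.1 ± 8.35 CPM in the neuron table to 48.5 ± 14.2 CPM in microglia (n = 5 each), and no neighbouring classes differed beyond their spread.

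Immobilization against naive asks what an acute stressor changes. Tsc22d3 rose in astrocytes, endothelial cells, microglia, the neuron table and the other neuron-class cells, and Tsc22d1 rose in astrocytes and endothelial cells. Thus 7 of 27 member and class pairs passed the test, all of them higher. Of all gene and class pairs 0.782% passed, and 0.562% passed as higher. The median log2 fold change of the 27 pairs was 0.33, against medians of all genes between -0.03 and -0.0035 over the classes. Each value comes from edgeR's quasi-likelihood test on the summed counts, with Benjamini-Hochberg adjustment over all genes tested in the class. Tsc22d3 was tested in 7 classes, Tsc22d1 in 8, Tsc22d4 in 7 and Tsc22d2 in 5, because the other classes held too few counts.

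The largest change of Tsc22d3 was in microglia, the resident macrophages of the brain. Its level was 118, 164, 159.7, 79.02 and 42.4 CPM in naive 1 to 5 and 1307, 1057, 1186 and 659.6 CPM in immobilization 1 to 4. All 4 immobilization libraries lay far above all 5 naive ones. This was a log2 fold change of 3.10 (SE 0.21, adjusted p = 1.75e-18 by edgeR), from a mean of 113 ± 52.4 CPM (n = 5) to 1052 ± 281 CPM (n = 4).

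In astrocytes Tsc22d3 was at 261, 576, 313, 213 and 237 CPM in the naive libraries and at 1279.5, 1468, 1489.5 and 1018 CPM after immobilization. The groups did not overlap, and naive 2 stood above the other naive libraries. The log2 fold change was 2.02 (SE 0.18, adjusted p = 1.84e-11 by edgeR). In endothelial cells, which form the vessel wall, Tsc22d3 was at 421, 919.5, 499, 358 and 275 CPM in the naive libraries and at 1899, 1763, 1714 and 1061 CPM after immobilization. Again the lowest immobilization library, number 4, was above the highest naive one, number 2. By edgeR's test the log2 fold change was 1.71 (SE 0.24, adjusted p = 1.47e-05 by edgeR).

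In the neuron table Tsc22d3 was at 99.9, 214, 153, 61.9 and 85.2 CPM in the naive libraries and at 354, 384, 508 and 162 CPM after immobilization. Immobilization 4 fell below naive 2, so the groups overlapped by that library. Tsc22d3 rose by 1.57 on the log2 scale (SE 0.23, adjusted p = 2.36e-05 by edgeR), and DESeq2 gave 1.53 with an adjusted p of 0.2499. In the other neuron-class cells Tsc22d3 was at 166, 242, 159 and 115 CPM in naive 1 to 4, with no UMI in naive 5, where 3 counts would have given 112 CPM. After immobilization the 4 libraries held 518, 495, 538 and 136 CPM, and immobilization 4 again lay inside the naive range. The log2 fold change was 1.52 (SE 0.19, adjusted p = 2.05e-08 by edgeR), and DESeq2 gave 1.51 with an adjusted p of 0.113. The summed astrocyte markers of the neuron table were 10094 to 15532 CPM in the naive libraries and 14568 to 16534 CPM after immobilization, and their part in the rise was not tested. In the other neuron-class cells they were 15799 to 18254 and 16492 to 17641 CPM. Neuron markers of the neuron table were 3606 to 17462 CPM in the naive libraries and 3471 to 9865 CPM after immobilization, and oligodendrocyte markers 1278 to 3492 and 1245 to 4441 CPM. In microglia astrocyte markers summed to 827 to 1502 CPM in the naive libraries and 748 to 2189 CPM after immobilization.

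The remaining classes did not pass. In oligodendrocytes, the myelin-forming cells, Tsc22d3 was at 212, 276, 167, 147 and 62.6 CPM in the naive libraries and at 222, 316, 244 and 76.2 CPM after immobilization. The ranges overlapped almost fully, and the log2 fold change was 0.36 (SE 0.20, adjusted p = 0.832 by edgeR). In mural cells, the contractile cells around vessels, Tsc22d3 was at 337, 350.4, 285 and 31.4 CPM in naive 1 to 4 and at 629, 453 and 465 CPM in immobilization 1 to 3. These ranges did not overlap, yet the log2 fold change of 1.01 had an SE of 0.53 (adjusted p = 0.999 by edgeR), in a class where 0% of 1020 genes passed. In precursors Tsc22d3 was below the filter on low counts: summed over libraries it was at 46.3 CPM in naive (95% exact Poisson interval 29.6 to 68.9, for counting error only) and 52.7 CPM after immobilization.

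Over all classes, 1.35% of gene and class pairs had every immobilization library above every naive one, and Tsc22d3 did so in astrocytes, endothelial cells, microglia and mural cells. Immobilization 1 and 4, from mice of 8 weeks like the naive ones, were above all naive libraries in astrocytes, endothelial cells and microglia. In the neuron table and the other neuron-class cells only immobilization 1 was, and immobilization 4, at 162 and 136 CPM, lay inside the naive range. Immobilization 4, with 182 cells, was the lowest of its group for Tsc22d3 in each of the 7 classes it entered, and naive 2 was the highest naive library in 7 of 8 classes.

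**Figure D1:**
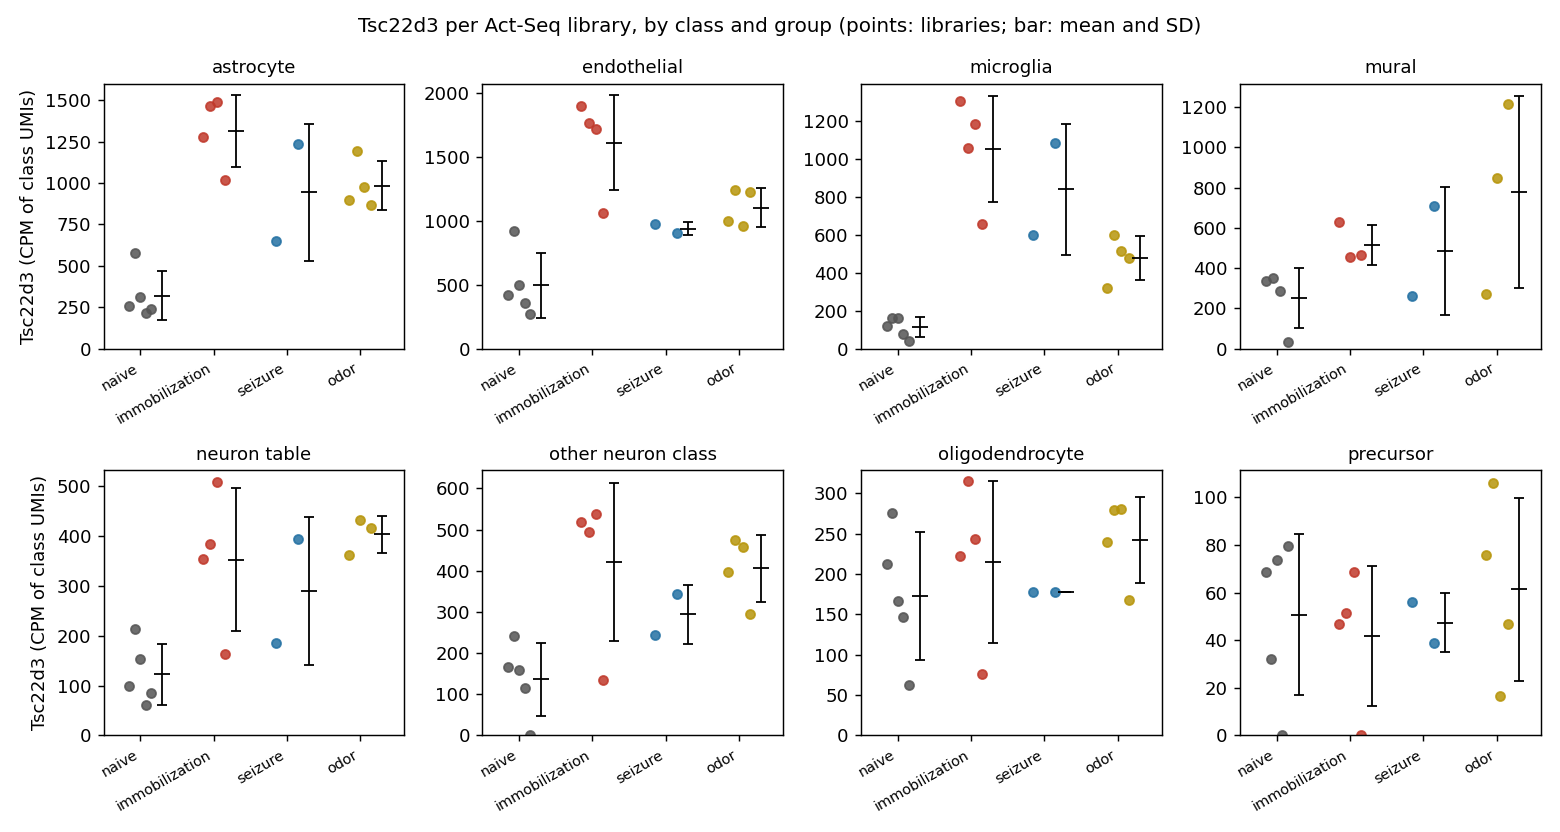
Tsc22d3 in the naive, seizure, immobilization and odor libraries (points) by class (panels) and group (horizontal axis), for libraries with at least 10 cells of the class. The vertical axis gives CPM of the class, with the mean and SD beside each group. In microglia the 4 immobilization libraries lie between 659.6 and 1307 CPM against 42.4 to 164 CPM in naive ones, while in oligodendrocytes the groups overlap.

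Tsc22d1 moved by less. In endothelial cells, its highest class, it was at 2146, 2443, 2302, 1619 and 1884 CPM in the naive libraries and at 3527, 3688, 3936 and 3648 CPM after immobilization. The groups were separated by a wide gap. Tsc22d1 rose there by 0.86 on the log2 scale (SE 0.19, adjusted p = 0.00628 by edgeR). In astrocytes Tsc22d1 was at 234, 228, 237, 161 and 169 CPM in the naive libraries and at 299.98, 351, 261 and 402 CPM after immobilization. The groups did not overlap, but the gap was narrow, and the log2 fold change was 0.56 (SE 0.14, adjusted p = 0.0166 by edgeR). This call was lost with age as a covariate (0.58, adjusted p = 0.0694) and without immobilization 1 (0.59, adjusted p = 0.0511), immobilization 2 (0.47, adjusted p = 0.214) or naive 4 (0.49, adjusted p = 0.0840). In the other 6 classes Tsc22d1 did not pass, among them precursors, its second highest class, with a log2 fold change of 0.11 (SE 0.21, adjusted p = 0.996 by edgeR).

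Tsc22d4 and Tsc22d2 passed in no class. The log2 fold changes of Tsc22d4 after immobilization ran from -0.03 to 0.34 over 7 classes, with a lowest adjusted p of 0.585 by edgeR. In oligodendrocytes, its highest class, it was at 1623, 1839, 1518, 1395 and 1376 CPM in the naive libraries and at 2176, 2123, 1918 and 1423 CPM after immobilization. Immobilization 1 to 3 were above all naive libraries and immobilization 4 was not. In astrocytes Tsc22d4 was at 1263, 1438, 1299.8, 1308 and 1229 CPM and at 1480.5, 1436, 1357 and 1112 CPM, which overlap. The log2 fold changes of Tsc22d2 ran from -0.74 to 0.53 over 5 classes, with a lowest adjusted p of 0.770 by edgeR, at levels where most sums held few UMIs.

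Seizure against naive uses the same naive libraries, so its values stand beside those of immobilization and are no independent evidence of a shared response. The saline-injected controls did not enter this comparison, and what injection or handling alone changes was not tested. Against saline, described below, astrocyte Tsc22d3 did not pass in the fit with all libraries. Only 2 seizure libraries entered, and 2 of 27 pairs passed by edgeR, both Tsc22d3 and both higher, where 0.278% of all pairs passed and 0.247% passed as higher. In microglia Tsc22d3 was at 597 and 1084 CPM in seizure 1 and 2, above the naive maximum of 164 CPM. The log2 fold change was 2.72 (SE 0.25, adjusted p = 8.6e-13). In astrocytes it was at 652 and 1237 CPM, above the naive maximum of 576 CPM, with a log2 fold change of 1.53 (SE 0.21, adjusted p = 1.77e-06). Seizure 2 carried this call: without it the log2 fold change was 0.99 (adjusted p = 0.0754).

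In the neuron table the seizure libraries were at 184 and 393 CPM, 1 inside and 1 above the naive range, with a log2 fold change of 1.10 (SE 0.26, adjusted p = 0.0820 by edgeR). It passed without a filter on low counts (1.12, adjusted p = 0.000154) and without seizure 1 (1.61, adjusted p = 0.00191). In endothelial cells they were at 971 and 900.0 CPM, which is around the naive 2 value of 919.5 CPM (0.88, SE 0.29, adjusted p = 0.347). In oligodendrocytes both were at 178 CPM, inside the naive range (-0.09, SE 0.26, adjusted p = 1). In mural cells they were at 262 and 709 CPM (0.96, SE 0.64, adjusted p = 0.819), 1 inside and 1 above the naive range, and in the other neuron-class cells at 244 and 344 CPM, above it (0.79, SE 0.22, adjusted p = 0.430). Naive 2 weighed on this comparison: without it 5 pairs passed, all Tsc22d3, with log2 fold changes of 1.87 in astrocytes, 2.89 in microglia, 1.23 in endothelial cells (adjusted p = 0.00736), 1.35 in the neuron table (adjusted p = 0.00379) and 1.01 in the other neuron-class cells (adjusted p = 0.0282). Tsc22d1 ran from -0.39 to 0.47 over 8 classes (lowest adjusted p 0.819), Tsc22d4 from -0.21 to 0.33 over 7 (0.977) and Tsc22d2 from -0.75 to 0.66 over 5 (0.989). Over all classes 4.29% of pairs had both seizure libraries above every naive one, and Tsc22d3 did so in astrocytes, microglia and the other neuron-class cells.

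Odor against naive shares the naive libraries too. Here 5 of 27 pairs passed by edgeR, all higher, against 0.253% of all pairs and 0.18% as higher. Tsc22d3 in microglia was at 320.4, 598, 517 and 477 CPM in odor 1 to 4, all above the naive maximum, with a log2 fold change of 1.88 (SE 0.23, adjusted p = 5.03e-08). In astrocytes it was at 898, 1193, 978 and 868 CPM, also above every naive library (1.59, SE 0.18, adjusted p = 1.72e-07).

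The neuron table held 361, 432 and 415 CPM of Tsc22d3 in odor 1 to 3 (1.64, SE 0.23, adjusted p = 4.05e-05; DESeq2 0.1805), and odor 4 had too few of these cells. The other neuron-class cells held 398, 474, 458 and 294 CPM (1.34, SE 0.19, adjusted p = 2.16e-06; DESeq2 0.644). All odor libraries in both groupings were above the naive ones. In the neuron table other classes' markers moved as well: neuron markers were lower without overlap (2157 to 3369 CPM after odor, 3606 to 17462 CPM in naive libraries), and oligodendrocyte markers (3673 to 4573 against 1278 to 3492 CPM) and microglia markers (991 to 1433 against 672 to 842 CPM) were higher without overlap. Astrocyte markers overlapped, at 13991 to 16465 against 10094 to 15532 CPM. The part of these markers in the Tsc22d3 values was not tested. In the other neuron-class cells oligodendrocyte markers were at 4037 to 5669 CPM after odor and 1680 to 4288 CPM in naive libraries, which overlap. Endothelial Tsc22d3 was at 995, 1239, 955 and 1222 CPM, above all naive libraries but not past the threshold (1.04, SE 0.25, adjusted p = 0.184 by edgeR). It passed without naive 2 (1.40, adjusted p = 0.00247) and by DESeq2 (1.06, adjusted p = 0.00768). Tsc22d1 in astrocytes was at 299.6, 353, 331 and 237 CPM and passed with a log2 fold change of 0.57 (SE 0.14, adjusted p = 0.0259). Odor 4 lay at the top of the naive range, and the call was lost with age as a covariate (adjusted p = 0.0917) and without odor 1, 2 or 3 or naive 4 or 5, where the adjusted p was 0.0649 to 0.188. In endothelial cells Tsc22d1 was at 2365, 3041, 2547 and 3394 CPM (0.36, SE 0.19, adjusted p = 0.860). Mural Tsc22d3 was at 270.0, 846 and 1217 CPM in odor 1 to 3, 1 inside and 2 above the naive range (1.60, SE 0.52, adjusted p = 0.360). Oligodendrocyte Tsc22d3 was at 239, 279.9, 281 and 168 CPM, which overlaps the naive values (0.38, SE 0.20, adjusted p = 0.789). Tsc22d4 ran from 0.04 to 0.36 over 7 classes (lowest adjusted p 0.618) and Tsc22d2 from -0.38 to 0.26 over 5 (0.834). Over all classes 1.42% of pairs had every odor library above every naive one, and Tsc22d3 did so in 5 of 8 classes.

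**Figure D2:**
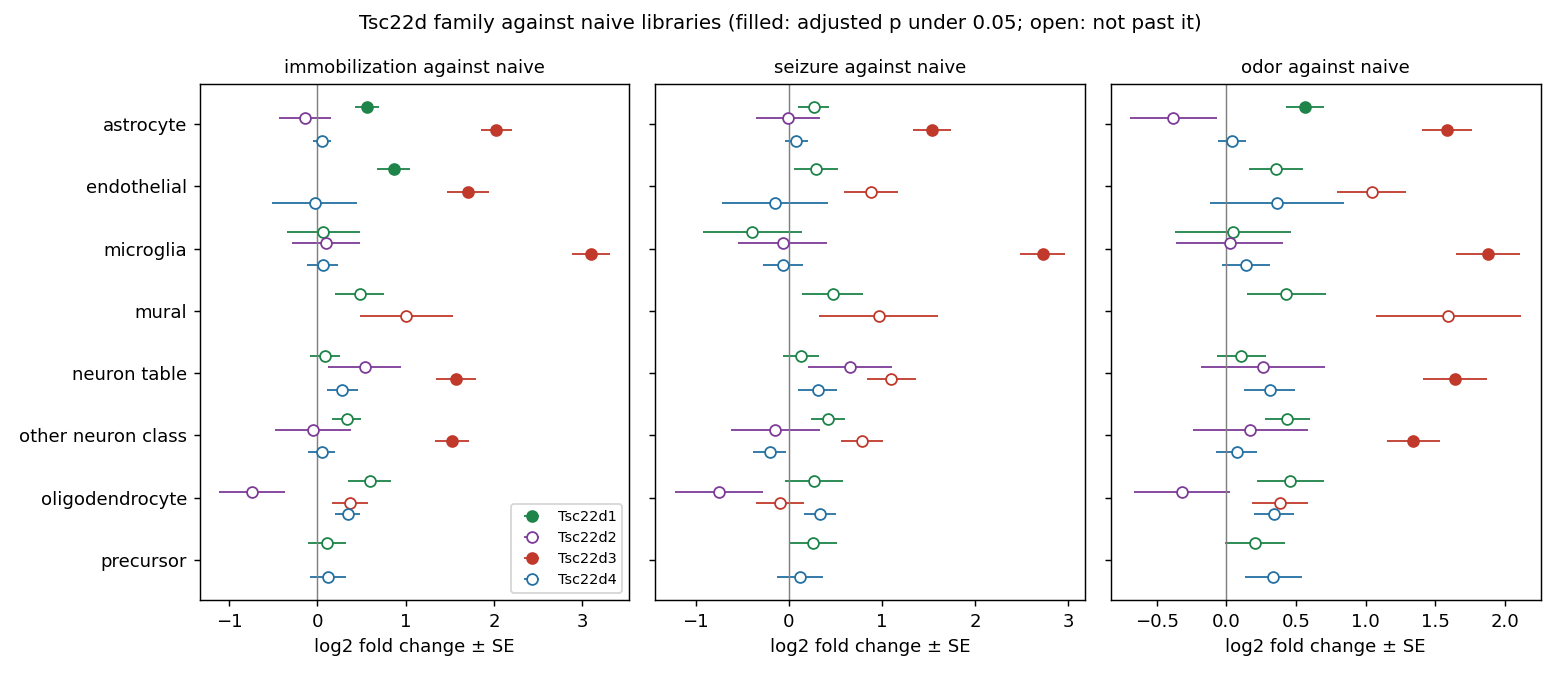
Log2 fold change with its SE (horizontal axis) of each member by class (vertical axis), for immobilization, seizure and odor against the same naive libraries, with filled points for adjusted p under 0.05 by edgeR. Tsc22d3 is the member farthest to the right, at 3.10, 2.72 and 1.88 in microglia, and Tsc22d2 and Tsc22d4 have no filled point.

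Of the treatments, immobilization was set against odor and seizure against immobilization, and 1 pair in all passed. Tsc22d3 in microglia was higher after immobilization than after odor, by 1.22 on the log2 scale (SE 0.19, adjusted p = 0.000192 by edgeR), where 0.0946% of all pairs passed (0.0753% as higher) and 1 of 27 member pairs did. The 4 immobilization libraries (659.6 to 1307 CPM) all lay above the 4 odor libraries (320.4 to 598 CPM). Astrocyte Tsc22d3 differed by 0.44 (SE 0.18, adjusted p = 1) and endothelial Tsc22d3 by 0.66 (SE 0.25, adjusted p = 0.431). Seizure against immobilization gave 0 of 27 pairs by edgeR, 4 of them at an unadjusted p under 0.05, and 0 by DESeq2, where 0.122% of all pairs passed. The log2 fold changes of Tsc22d3 were -0.83 to -0.04 over the 7 classes tested, with a lowest adjusted p of 0.501.

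A pass in 1 class and not in another shows no difference, so the change in each class was also tested against the mean change of the other 7, with a term for each library. Of 96 such tests on the members 4 passed by edgeR, against 0.0308% over all genes, and all 4 were Tsc22d3. Microglia exceeded the other classes by 1.90 after immobilization (SE 0.25, adjusted p = 4.56e-09) and by 1.98 after seizure (SE 0.28, adjusted p = 3.36e-07) on the log2 scale. Oligodendrocytes fell short of the others by -1.31 after immobilization (SE 0.23, adjusted p = 0.000131) and by -1.28 after seizure (SE 0.29, adjusted p = 0.0332). After odor, oligodendrocytes were at -0.95 (adjusted p = 0.0781) and microglia at 0.77 (SE 0.26, adjusted p = 0.922), and 0 of 32 member tests passed against 0.0152% of all (3 at an unadjusted p under 0.05; DESeq2 was not run for these terms). Astrocytes, endothelial cells and the neuron groupings did not pass in any of the 3. Precursors, which held few Tsc22d3 UMIs, were at -1.45 after immobilization (SE 0.51, adjusted p = 0.887).

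The same change was looked at cell by cell, after thinning each cell to 600 UMIs, which left out 24 of 5612 immobilization cells, 32 of 6037 naive, 28 of 5464 odor and 11 of 3566 seizure cells. The share of microglia with a Tsc22d3 UMI was 7.08 ± 4.75% in naive libraries (SD, n = 5) and 40.9 ± 15.8% after immobilization (n = 4). By library the naive shares were 8.56, 7.98, 13.04, 5.81 and 0%, the last of 35 cells, which allows a share of up to 8.57%, and the immobilization shares were 50.4, 44.0, 51.3 and 17.6%. Each immobilization library was above each naive one, and immobilization 4 was the lowest with 17 cells. Without thinning the means were 13.1% and 63.5%.

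Over the other classes the thinned shares after immobilization were 48.5% of astrocytes (16.9% in naive), 61.4% of endothelial cells (26.3%), 14.5% of the neuron table (6.07%) and 19.4% of the other neuron-class cells (7.18%). Oligodendrocytes were at 8.56% (7.70% in naive). No class is known to lack Tsc22d3, so a level of background could not be measured. Precursors, the lowest class, were at 2.12% in naive libraries and 2.25% after immobilization. Their medians were 2175.5 and 2065 UMIs per cell against 1237 and 1168 in microglia. By the two-sided exact permutation test over libraries, 0 of 24 class and comparison pairs passed, with a lowest adjusted p of 0.0635 (8 of 24 at an unadjusted p under 0.05). The smallest p this test allows is 0.0159 for 4 libraries against 5, 0.0357 for odor in the neuron table and 0.0952 for seizure outside mural cells. In mural cells it is 0.0571 for immobilization and odor and 0.133 for seizure. The mural and seizure tests could therefore not reach 0.05. With the absolute difference as the test statistic, an alternative chosen after seeing the data, 5 of 24 passed with a lowest adjusted p of 0.0381.

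The authors' 16 clusters of the neuron table are described from UMIs summed over libraries, with no test. These sums had no minimum of cells per library, so they include naive 6 and odor 4, which the class sums of the neuron table left out. N9 and N12 held 23013 and 79422 CPM of neuron markers, against 1498 to 3328 CPM in the other 14 clusters, and 2999 and 2414 CPM of astrocyte markers, against 9345 to 17878 CPM. Naive Tsc22d3 ran from 8.20 CPM in N12, which is 1 UMI, to 275 CPM in N2. After immobilization it was above naive in 16 of 16 clusters, with 1 UMI in each group in N12, after odor in 15 and after seizure in 12. These counts take any excess, however small, such as 353 against 275 CPM in N2 after immobilization. The clusters come from the same libraries, so they are not separate results, and the same count was not made for all genes. In N9 it was at 50.9 CPM in naive, 154 after immobilization, 160.3 after odor and 186 after seizure, from 7 UMIs in naive. N13, one of the clusters with most astrocyte markers, went from 196 CPM to 528, 513 and 439 CPM, and N15 from 104 to 520, 544 and 331 CPM. In N12 the counts were too few to read a change after immobilization or seizure.

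Tsc22d1 was highest in naive N10 (551 CPM) and N9 (479.7 CPM) and lowest in N12 (115 CPM). Tsc22d4 was lowest in the neuron-marker clusters, at 189 CPM in N12 and 240 CPM in N9, and was between 667 and 1263 CPM in the other 14. The clusters with neuron markers were therefore low in Tsc22d4 and, for N9, high in Tsc22d1 among the clusters.

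**Figure D3:**
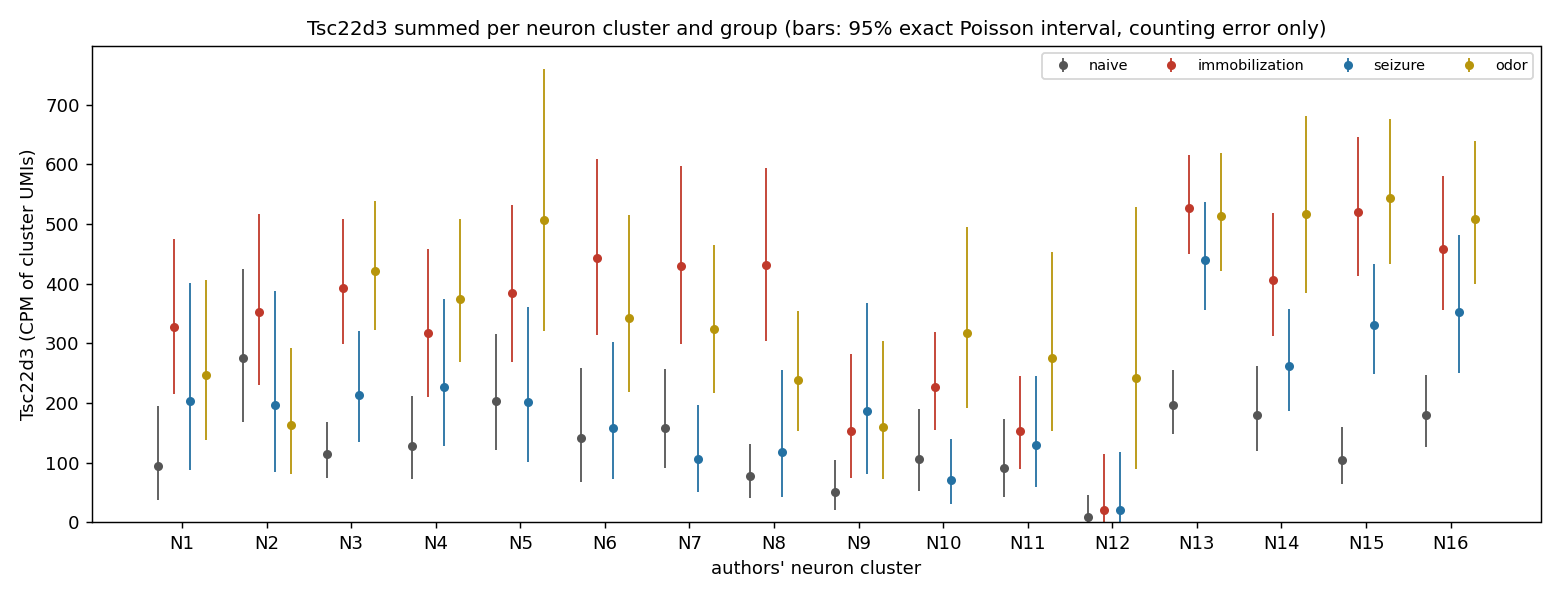
Tsc22d3 in the 16 clusters of the neuron table, in CPM of UMIs summed over the libraries of a group, with exact Poisson intervals that cover counting error only. N9 and N12 start lowest, at 50.9 and 8.20 CPM, and N13 and N15 reach 528 and 520 CPM after immobilization, while N12 holds 1 UMI in naive libraries and 1 after immobilization, too few to read.

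The dissociation table holds 5 libraries: saline and seizure, each by Act-Seq and by conventional dissociation, with 2 Act-Seq seizure libraries that are the same cells as seizure 1 and 2 above. Of its 6955 barcodes 1116 stand under more than 1 library. By identical counts 2900 of 2900 seizure cells matched a cell of the first table under the same library label but 0 under the same barcode. The library labels were thus checked for the seizure libraries and could not be for the other 3. Classes were rebuilt from clusters, and 94.5% to 100% of the matched cells of each class compared carried the same class in the first table. Within astrocyte cluster 7 this share was 76.1%. The matched cells were all from the Act-Seq seizure libraries, so the classes of the saline and conventional libraries could not be checked. Clusters without a name held 1155 of the 2900 matched cells and were left out. The largest, cluster 8 with 1716 cells, had 975 matched cells, and 61.4% of these were other neuron-class cells in the first table. Neurons were not compared. Seizure and method were fitted as additive terms.

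Conventional against Act-Seq dissociation asks what the dissociation itself adds, and 1 of 19 member pairs passed by edgeR, as higher, where 2.23% of all pairs did and 0.994% as higher. Tsc22d3 in astrocytes was at 466.03 CPM in saline and 626 and 1203 CPM in the seizure libraries by Act-Seq, and at 1116 CPM in saline and 1214 CPM in seizure by conventional dissociation. Both conventional libraries were near the higher seizure library and well above Act-Seq saline. The log2 fold change was 0.87 (SE 0.18, adjusted p = 0.00132). Leaving out seizure 2 or the conventional seizure library made microglial Tsc22d3 a call as well (1.05, adjusted p = 0.000387, and 1.84, adjusted p = 3.39e-06). Without the Act-Seq saline library the astrocyte value was 0.46 (adjusted p = 0.247), and without the conventional saline library 0.48 (adjusted p = 0.406), so the call rests on the saline pair. The astrocyte class drew on its clusters unevenly: cluster 7 held 104, 90 and 65 cells of the Act-Seq libraries and 7 and 6 of the conventional ones. Within cluster 9, which held most astrocytes of every library, Tsc22d3 was at 585, 806 and 1523 CPM by Act-Seq and 1163 and 1373 CPM by conventional dissociation. The part of the clusters in the call was not tested. Endothelial Tsc22d3 was at 675, 976 and 839 CPM by Act-Seq and 1240.1 and 1378 CPM by conventional dissociation (0.82, SE 0.25, adjusted p = 0.438), with both conventional libraries highest. In oligodendrocytes it was at 221, 190.1 and 173 CPM against 229.6 and 312 CPM (0.54, SE 0.19, adjusted p = 0.362).

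Seizure against saline gave 1 of 19 pairs, as higher, where 0.181% of all pairs passed and 0.111% as higher. Tsc22d3 in microglia was at 179 CPM in Act-Seq saline, 666 and 1101 CPM in Act-Seq seizure, 562 CPM in conventional saline and 830.4 CPM in conventional seizure. The seizure libraries were above saline within each method, with a log2 fold change of 1.38 (SE 0.27, adjusted p = 0.00357 by edgeR), and without the Act-Seq saline library it was 0.50 (adjusted p = 0.996). Astrocyte Tsc22d3 was at 0.64 (SE 0.18, adjusted p = 0.258) and passed without conventional saline (1.03, adjusted p = 0.0392), seizure 1 (0.78, adjusted p = 0.000259) or conventional seizure (1.03, adjusted p = 0.0335). A term for the difference of the seizure change between methods was -1.79 (SE 0.42, adjusted p = 0.0152 by edgeR), with the smaller change in the conventional libraries, and it was the 1 of 22 member terms that passed, against 0.151% of all terms. Every arm but Act-Seq seizure is 1 library, which is assumed to vary as the 2 seizure libraries and the other genes do, so the term compares these libraries and does not establish a difference between methods. Different clusters held the microglia by the 2 methods: cluster 4, led by the chemokines Ccl4, Ccl3 and Ccl2, held 290 conventional and 7 Act-Seq cells, and cluster 16 held 449 Act-Seq and 19 conventional cells. Their part in the term was not tested. The astrocyte interaction was -0.90 (SE 0.36, adjusted p = 0.948).

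Other genes of the pathway were taken from 3 lists. The lists were chosen with earlier results of these data known, so their counts are a description and no independent evidence. The shares of all genes beside the counts cover either direction. As higher, 1.02% of all genes passed in astrocytes after immobilization. Of 30 glucocorticoid-responsive genes, 16 of 25 tested rose in astrocytes after immobilization (median log2 0.91; all genes -0.02, with 1.51% called in either direction), 13 of 20 in oligodendrocytes (median 1.31; 0.9% of all genes), 8 of 17 in microglia (1.46%) and 6 of 16 in endothelial cells (1.76%). Of 20 tested in the neuron table, 3 rose (0.0795%), in the other neuron-class cells 2 of 20 (0.0812%), while 0 of 7 passed in mural cells and 0 of 9 in precursors, classes in which 0% of all genes passed. None fell after immobilization, seizure or odor against naive. Oligodendrocytes thus had many risers on the list while Tsc22d3 did not pass there: Cdkn1a, a cell cycle inhibitor, rose by 5.08, Pdk4, a kinase that restrains glucose oxidation, by 3.91 and Plin4, a lipid droplet protein, by 2.66 on the log2 scale. In astrocytes Fkbp5, a co-chaperone that restrains the glucocorticoid receptor, rose by 3.61 and the kinase Sgk1 by 1.97. In microglia the phosphatase Dusp1 rose by 4.30, Ddit4, an inhibitor of mTORC1, by 3.91 and the clock gene Per1 by 2.61.

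After odor 9 of 25 list genes rose in astrocytes (0.656% of all genes passed), 12 of 20 in oligodendrocytes (0.524%) and 3 of 17 in microglia (0.0923%), and 0 of 16 in endothelial cells (0%), 0 of 20 in the neuron table (0.125%), 0 of 20 in the other neuron-class cells (0.058%), 0 of 7 in mural cells (0%) and 0 of 9 in precursors (0.0204%). After seizure 8 of 25 rose in astrocytes (0.466%), 6 of 20 in oligodendrocytes (0.134%), 8 of 17 in microglia (0.431%), 4 of 16 in endothelial cells (0.63%) and 4 of 7 in mural cells (0.686%). The count was 1 of 20 in the neuron table (0.102%), 0 of 20 in the other neuron-class cells (0.116%) and 1 of 9 in precursors (0.122%). Of 11 genes for steroid receptors and steroid handling, and of 17 TGF-beta and WNK pathway partners, 0 passed by edgeR against naive in any class (9 of 210 steroid and 8 of 216 partner tests had an unadjusted p under 0.05; DESeq2 was not run on the lists). Nr3c1, which encodes the glucocorticoid receptor, had log2 fold changes after immobilization of -0.06 (SE 0.13) in astrocytes, -0.34 (SE 0.21, adjusted p = 0.748) in microglia and -0.36 (SE 0.17, adjusted p = 0.676) in oligodendrocytes.

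The genes whose pattern was most like each member were ranked by Pearson's r over 116 library and class sums among 8434 genes, after the class mean was removed. The sums share libraries and depth, so r is a description with no p. For Tsc22d3 they were Glul (glutamine synthetase, 0.650), Sult1a1 (a sulfotransferase, 0.593), Mfsd2a (a lipid transporter, 0.560), Nfkbia (the NF-kappaB inhibitor, 0.553) and Klf9 (a zinc finger factor, 0.547); Sult1a1, Nfkbia and Klf9 are also on the list of glucocorticoid-responsive genes. For Tsc22d1 they were Ube2b (0.548), Anapc5 (0.541) and Napa (0.536), for Tsc22d4 S100b (0.537), Slc1a2 (0.529) and Kif5a (0.5261), and for Tsc22d2 Kin (0.553), Pygo1 (0.483) and Tmem57 (0.478). Between members r was 0.087 to 0.362, so none of the other 3 was among the genes most like Tsc22d3.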

How the data were processed

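The deposited values are raw UMI counts of each gene in each cell, and the authors' cell names carry the library and, in the first table, the class or neuron cluster. Per the submitters' processing notes, bcl2fastq 2.17.1.14 and STAR 2.5.0a with mm10 were used. For the counting tool, its use of strand and the filtering of cells, nothing is given in the sources used here. The 4 members and the lists of other genes were chosen with earlier results of these data known. The rule for named genes takes the members in every class and comparison, printed singly or as ranges, and from each list, counted whole, at most 3 genes past the threshold with the largest log2 fold change per class.

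Counts were summed per library and class (at least 10 cells). They were fitted over the naive, seizure, immobilization and odor groups in edgeR 4.0.16 (R 4.3.3) with filterByExpr, TMM scaling and the quasi-likelihood test. The threshold was 0.05 after Benjamini-Hochberg adjustment within the class. The SE is the log2 fold change divided by the root of F. DESeq2 1.42.0 was an alternative. Likeness used log2(CPM + 10) for genes of at least 20 CPM on average. In the dissociation table, cells were clustered in scanpy 1.11.5 (2000 variable genes, 30 components, 15 neighbours, Leiden resolution 0.8), and clusters were named from markers. Scrublet called 0.556% of first-table cells as doublets and none were removed. An alternative removed the 5% with the highest scores (1032 cells). Same-numbered libraries had median correlations over genes of -0.0005 to 0.026, and the labels' numbers were not used as pairs in the main fits.

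The fits were tested on simulated data: for immobilization against naive in microglia (6054 genes) 47.9% of 2-fold and 99% of 4-fold changes were recovered, in astrocytes (10150 genes) 70.4% and 100%, and in the neuron table (8349 genes) 56.6% and 98%. For the class difference in microglia (1137 genes) 48.9% of 4-fold increases and 25% of 4-fold decreases were recovered. Of 2-fold increases 12.5% were recovered, and of 2-fold decreases 11.1%. This simulation gave every gene the same spread and no shift shared by a library, so recovery in the real data may differ. Low counts limit the precision most for Tsc22d2 and for immobilization 4 and naive 5. Promoter windows and the gene positions (GENCODE vM21) are of GRCm38, and protein sequences were not used here.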

Additional observations from a re-analysis of the deposited data

Results flagged for a closer look

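Of 84 sets of 4 to 10 libraries of a group, class and member, 10 held a library far from the others by Dixon's criterion, where chance gives about 1 in 20. For Tsc22d3 these were naive 2 in astrocytes at 576 CPM (others 213 to 313 CPM) and immobilization 4 in the other neuron-class cells at 136 CPM (5 UMIs, others 495 to 538 CPM). For Tsc22d1 it was naive 2 in mural cells at 888 CPM, against 569.8 to 617 CPM. Tsc22d4 gave endothelial immobilization 1 at 176 CPM (others 42.3 to 59.6 CPM), microglial naive 5 at 169.6 CPM (others 433 to 489 CPM) and immobilization 4 in the neuron table at 812 CPM (others 1065 to 1080.1 CPM). It also gave 2 precursor values, immobilization 4 at 566 CPM (others 1060.4 to 1084 CPM) and naive 5 at 505 CPM (others 910.1 to 1053 CPM). Tsc22d2 in oligodendrocytes gave immobilization 4 at 50.8 CPM from 2 UMIs and odor 4 at 17.97 CPM from 3 UMIs.

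The change of Tsc22d3 differed between classes by test. Microglia stood above the mean of the other classes by 1.90 after immobilization and 1.98 after seizure, and oligodendrocytes below it by -1.31 and -1.28, on the log2 scale. In the dissociation table the term for a difference of the seizure change of microglial Tsc22d3 between methods was -1.79, with 1 library in every arm but Act-Seq seizure, which limits it to these libraries.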

How the results depend on the processing

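Members past the threshold for immobilization against naive numbered 6 to 7 when each library was left out (7 in all), for odor 4 to 6 (5), for immobilization against odor 1 and for seizure against immobilization 0. Seizure against naive gave 1 without seizure 2 and 5 without naive 2 (2 with all). With the replicate number as a block, seizure against immobilization gave 1 (Tsc22d3 in astrocytes, -0.66, adjusted p = 0.0341). The block also ended the calls of Tsc22d1 in astrocytes for immobilization (0.49, adjusted p = 0.0604) and odor (0.51, adjusted p = 0.0611), made Tsc22d3 in the neuron table a call for seizure against naive (0.96, adjusted p = 0.0442), and changed no other call. Over genes, same-numbered libraries had a median correlation of -0.0005 to 0.026 in astrocytes, microglia, oligodendrocytes and the other neuron-class cells. For Tsc22d3 number 2 was the highest naive library in 7 of 8 classes and the highest odor library in 6 of 8. It was the highest immobilization library in 1 of 8. Whether the numbers stand for a shared batch was not tested. Without libraries under 300 cells both Tsc22d1 calls were also lost (adjusted p = 0.0560 and 0.0637). Conventional against Act-Seq gave 0 by DESeq2, 0 over all cells summed and 0 to 2 on leaving out a library (1 with all). Seizure against saline gave 0 by DESeq2, 0 over all cells summed, 2 without a filter on low counts and 0 to 2 on leaving out a library (1 with all). No paired analysis was possible because the dissociation libraries share fewer than 2 replicate numbers across groups. The shares gave 5 passes with the absolute difference, chosen after seeing the data, and 0 to 6 on leaving out a library, where without a seizure library 16 tests remained. Means over the naive, seizure, immobilization and odor libraries that entered the class were 2775 CPM for endothelial Tsc22d1, 1013 CPM for endothelial Tsc22d3 and 1794 CPM for oligodendrocyte Tsc22d4. With TMM scaling the last was 1840.4 CPM in naive libraries. Leaving out a naive library gave 1988 to 2194, 388 to 549 and 1478 to 1594 CPM for these 3, and 44.6 to 53.4 CPM for microglial Tsc22d2. For changes other than those means the cause was not tested. Among the changes past the threshold, no direction reversed in any alternative run, and the directions of the other pairs were not compared. The class differences gave 4 or 5 passes under the other alternatives, and leaving out each library was not run for them.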
